A study of Homo sapiens with 12 samples.

Results

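IL4I1, the aryl hydrocarbon receptor AHR, its partner ARNT and 4 genes that AHR can switch on (CYP1B1, TIPARP, AHRR and NQO1) were followed by RNA sequencing in a leukaemia line with inducible MEF2C. These 7 genes, of 55765 in the count table, were taken by symbol. IL4I1 and CYP1B1 were chosen by their higher levels in cells with the S222A form of MEF2C, so their values in S222A libraries are given as a description with no test. AHR, ARNT, AHRR, TIPARP and NQO1 were taken for their function and were tested in every comparison.

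The cells were clones grown from single cells of OCI-AML2, an established human acute myeloid leukaemia line. MEF2C is a transcription factor of blood, muscle and neurons, and the series title ties its phosphorylation to chemotherapy resistance. The 4 groups of 3 libraries were S222A induced (S222A MEF2C, 600 ng doxycycline), S222A uninduced (S222A MEF2C, vehicle), WT induced (wild-type MEF2C, 600 ng doxycycline) and WT uninduced (wild-type MEF2C, vehicle). All 4 groups were cultured for 48 h in 3 ml, and every group shared the line and an inducible construct. The number of clones behind each construct is not stated, and doxycycline-treated cells without a construct were not analysed here, so a difference between the lines cannot be told apart from a difference between clones. No label says that the 3 libraries of a group came from separate cultures, and p-values measure the spread between these libraries, which may be technical.

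AHR is a transcription factor of the bHLH-PAS family that waits in the cytosol with HSP90 and PTGES3 (p23). A bound ligand sends it to the nucleus, where it pairs with ARNT and binds xenobiotic response elements (XRE) to switch on genes such as CYP1A1 and CYP1B1, cytochrome P450 enzymes that oxidise aromatic compounds. AHRR and TIPARP are also induced and act back on the receptor: AHRR is a repressor that competes for ARNT, and TIPARP is an ADP-ribosyltransferase that modifies AHR. NQO1 is a quinone reductase that answers both to AHR and to the oxidative stress factor NRF2. IL4I1 is a secreted L-amino acid oxidase of myeloid and B cells that breaks down phenylalanine, tyrosine and tryptophan, and its tryptophan product indole-3-pyruvate gives rise to AHR ligands.

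The sequence that AHR and ARNT bind has the core GCGTG, and it was looked for on both strands in windows from 250 bases before to 50 bases after each RefSeq gene start (GRCh38.p14). RefSeq windows were matched for 6 of the 7 genes, 9 windows in all, and CYP1B1 was not among them. The windows below belong to IL4I1 and to the 3 targets with a matched window, and each holds the core, which is in capitals (as CACGC where it lies on the other strand). They are IL4I1 on the minus strand at chr19:49929455-49929754, TIPARP window 1 on the plus strand at chr3:156674340-156674639, AHRR window 1 on the plus strand at chr5:321464-321763 and NQO1 on the minus strand at chr16:69726511-69726810, each written 5′ to 3′ along its gene.
IL4I1: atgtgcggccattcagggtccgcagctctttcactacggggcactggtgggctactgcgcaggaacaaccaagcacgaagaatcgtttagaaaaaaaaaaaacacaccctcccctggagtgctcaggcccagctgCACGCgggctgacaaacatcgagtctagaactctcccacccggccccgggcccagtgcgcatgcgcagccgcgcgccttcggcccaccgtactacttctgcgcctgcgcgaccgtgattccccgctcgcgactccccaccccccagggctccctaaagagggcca
TIPARP: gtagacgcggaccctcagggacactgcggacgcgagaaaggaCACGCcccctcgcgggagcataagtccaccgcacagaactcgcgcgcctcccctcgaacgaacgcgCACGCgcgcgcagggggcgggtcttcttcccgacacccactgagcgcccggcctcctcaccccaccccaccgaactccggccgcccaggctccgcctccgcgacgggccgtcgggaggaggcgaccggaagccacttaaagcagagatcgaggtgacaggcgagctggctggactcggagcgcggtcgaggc
AHRR: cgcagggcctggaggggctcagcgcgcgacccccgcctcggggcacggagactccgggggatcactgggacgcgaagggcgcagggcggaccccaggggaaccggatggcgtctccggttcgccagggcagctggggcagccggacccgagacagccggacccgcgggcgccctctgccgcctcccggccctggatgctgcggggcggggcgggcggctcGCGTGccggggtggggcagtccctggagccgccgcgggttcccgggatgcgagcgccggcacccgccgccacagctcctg
NQO1: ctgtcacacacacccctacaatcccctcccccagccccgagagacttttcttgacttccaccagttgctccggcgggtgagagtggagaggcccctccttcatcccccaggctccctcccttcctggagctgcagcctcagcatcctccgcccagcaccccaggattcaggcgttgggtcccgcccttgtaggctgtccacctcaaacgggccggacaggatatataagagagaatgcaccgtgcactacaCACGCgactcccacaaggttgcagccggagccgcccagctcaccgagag

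The core began at position -115 from the annotated start in the IL4I1 window, at -208 and -142 in the TIPARP window, at -30 in the AHRR window and at 1 in the NQO1 window. AHR itself had 1 match, at position 37. A further AHRR window had matches at -247 and -42, the other TIPARP windows had none, and ARNT had none. The core is short and common: 36.5% of 35116 RefSeq windows and 40.6% of 27305 genes held it, against 6 of the 9 windows and 5 of the 6 genes here, which is a description of these letters only. A longer form, TNGCGTG, was in 5.51% of all windows and, among the 9, in the AHRR window at -32 and in the NQO1 window at 1, both times over the core match. The antioxidant response element that NRF2 binds, searched as TGACNNNGC, was in 13.3% of all windows and among the 9 only in that of ARNT. The MEF2 box was in 2.99% of all windows and in none of the 9. The IL4I1 window was also the one RefSeq gives for NUP62, a nuclear pore gene that starts at the same place. No other IL4I1 window was searched, and where IL4I1 RNA starts in these cells was not tested.

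**Figure D1:**
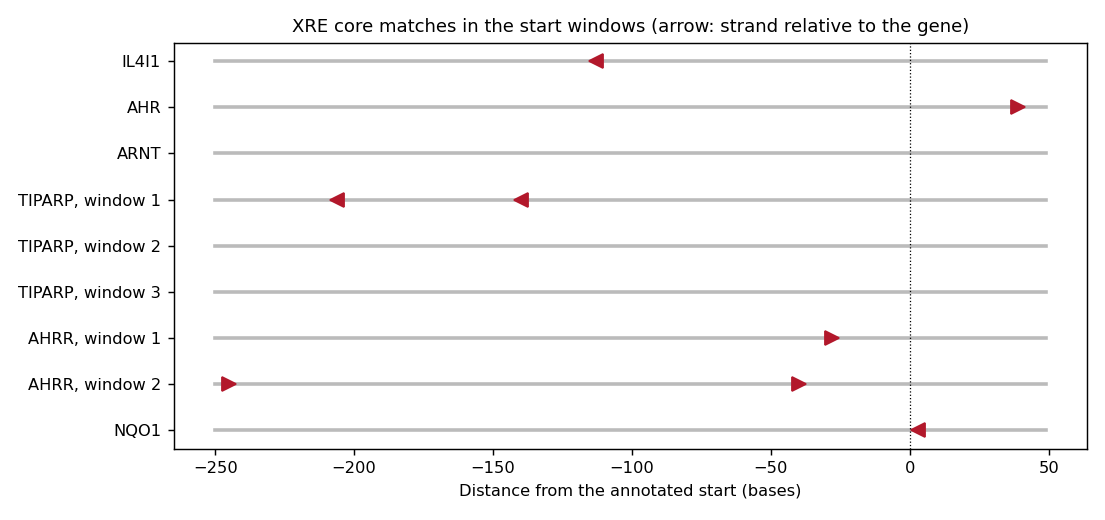
Matches to the XRE core in the 9 RefSeq windows of 6 genes, by distance in bases from the annotated start, with arrows for the strand relative to the gene. Matches lie between -247 and 37, and ARNT and TIPARP windows 2 and 3 have none.

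Between 875710 and 13134791 counts fell on genes in a library. Levels are given in CPM, counts scaled to a common library total, with TMM factors that leave out extreme genes when libraries are set to a common level. The floor of 3 counts corresponded to 0.228 to 3.43 CPM, and it covers counting error only. The deepest library of each group (S222A induced replicate 3, S222A uninduced replicate 1, WT induced replicate 1, WT uninduced replicate 2) stood apart on the first principal component, at 33.5 to 44.4 against -51.3 to -2.16 for the other 8. No label gives a reason, and differences within these 4 and within the other 8 are given beside the main results. Of the 7 line markers, PTPRC, CD33, SPI1, MPO and LYZ were detected, CEBPA had no count in any library and ANPEP was near 0. The 7 summed to 740 to 839 CPM in S222A induced, 657 to 753 in S222A uninduced, 685 to 819 in WT induced and 643 to 838 CPM in WT uninduced libraries, but PTPRC makes up most of each sum (516 to 760 CPM) and hides the others. MPO, the granule peroxidase, averaged 2.12 CPM in S222A induced, 7.24 in S222A uninduced, 8.37 in WT induced and 17.7 CPM in WT uninduced cells (n = 3 each). It was called lower on S222A induction (log2 -1.71 ± 0.42, adjusted p = 0.0377) and in S222A induced against WT induced cells (log2 -2.01 ± 0.41, adjusted p = 0.0124, edgeR), so a marker of the line moved in the same comparisons as TIPARP, and its part in the results below was not tested. LYZ averaged 4.75 CPM in S222A induced, 14.1 in S222A uninduced, 7.62 in WT induced and 8.55 CPM in WT uninduced cells and was not called. Markers of T, B, erythroid and fibroblast cells and of platelets summed to at most 3.91 CPM. MEF2C itself lay between 605 and 956 CPM in all 12 libraries and was not called on induction in either line (S222A log2 change 0.34 ± 0.16, adjusted p = 0.285; WT 0.08 ± 0.16, adjusted p = 1.00; SE, edgeR), and its counts do not separate the construct from the gene of the cell.

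IL4I1 was low in the WT line and many times higher in the S222A line, and higher again after induction there. The S222A induced libraries held 33.2, 32.1 and 47.7 CPM (96, 144 and 599 counts), and the S222A uninduced libraries 11.3, 13.5 and 13.1 CPM (94, 33 and 12 counts). The WT induced libraries held 2.78, 2.24 and 1.32 CPM (19, 2 and 5 counts), and the WT uninduced libraries 3.03, 0.773 and 2.04 CPM (6, 4 and 5 counts). Every S222A induced library was above every S222A uninduced library, every S222A library was above every WT library, and the WT groups overlapped. The means were 37.7 ± 8.72 CPM in S222A induced, 12.7 ± 1.20 in S222A uninduced, 2.11 ± 0.739 in WT induced and 1.95 ± 1.13 CPM in WT uninduced cells (SD, n = 3 each).

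S222A induction came with a 3.04-fold higher IL4I1 level (log2 1.60 ± 0.31, SE), at 2.04 within the deepest libraries and 1.26 within the others. Against the WT line the level was 17.2-fold higher after induction (log2 4.11 ± 0.38) and 7.35-fold higher before it (log2 2.88 ± 0.42). These folds rest on group sums of 839 counts in S222A induced, 139 in S222A uninduced, 26 in WT induced and 15 in WT uninduced libraries. The uninduced difference was 2.29 on the log2 scale without WT uninduced replicate 2, the library at 0.773 CPM. IL4I1 reached the low-count filter through the S222A line: 6 of 6 S222A libraries and 1 of 6 WT libraries exceeded the filter level of 3.05 CPM, whereas the other 6 genes exceeded it in all 12 libraries.

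In the WT line, a comparison that no S222A library enters, the log2 difference of IL4I1 was 0.38 ± 0.49 (SE, 95% interval -0.69 to 1.44). It was 1.40 within the deepest libraries (19 counts induced, 4 uninduced) and -0.43 within the others. The sign of the 0.38 turned without WT uninduced replicate 2 (-0.19), without WT induced replicate 1 (-0.12) and without the deepest libraries (-0.70). At 2 to 19 counts per WT library a change of 0.38 was not detectable, and no test result is drawn from it. The S222A induction effect exceeded the WT one by 1.23 ± 0.60 on the log2 scale (SE, 95% interval -0.07 to 2.53, which includes 0), with 0.64 within the deepest libraries and 1.70 within the others. It was 1.99 without the deepest libraries and ran between 0.79 (without WT uninduced replicate 1) and 1.80 (without WT uninduced replicate 2) with each library left out.

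IL4I1 lies on the minus strand of chromosome 19, and in GENCODE 29 it shares 336 of its 2563 exon bases (13.1%) with NUP62 on the same strand and 75 with ATF5 on the opposite strand. Reads from these stretches cannot be assigned to a gene without the counting rule and the strand setting, and the sources used here name neither. NUP62 had another order of groups: it ranged over 79.4 to 98.0 CPM in S222A induced, 105 to 130 in S222A uninduced, 80.8 to 85.9 in WT induced and 92.3 to 107 CPM in WT uninduced libraries. Its log2 difference was -0.41 ± 0.15 on S222A induction (adjusted p = 0.142) and 0.05 ± 0.15 between the induced lines (adjusted p = 0.906, edgeR), neither called. Nor was ATF5, a stress-response transcription factor, called on S222A induction (log2 -0.28 ± 0.25, adjusted p = 0.611, edgeR).

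**Figure D2:**
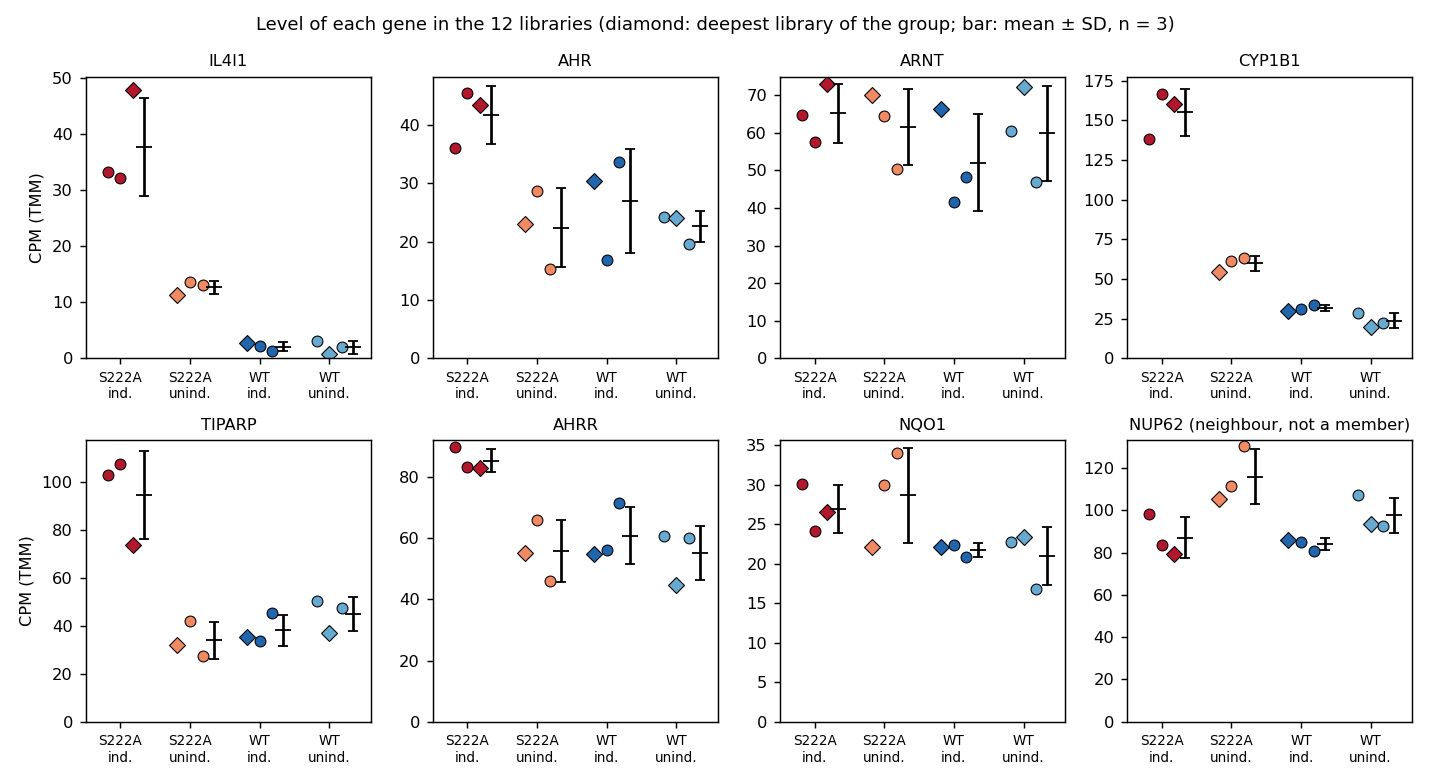
CPM of each of the 7 genes and of NUP62 in the 12 libraries, S222A groups left of WT groups, with the mean and SD (n = 3) and diamonds for the deepest library of each group. IL4I1 and CYP1B1 are highest in S222A induced and next highest in S222A uninduced libraries, TIPARP is highest in the S222A induced libraries, and ARNT overlaps across all groups.

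AHR, the receptor, was higher in every S222A induced library than in any S222A uninduced library, but did not pass the test. It stood at 36.0, 45.5 and 43.4 CPM in S222A induced, 23.1, 28.7 and 15.3 CPM in S222A uninduced, 30.4, 16.8 and 33.7 CPM in WT induced and 24.2, 24.0 and 19.6 CPM in WT uninduced libraries. The S222A induced libraries lay above all 9 others, which overlapped with each other. The S222A induction difference was 1.80-fold (log2 0.85 ± 0.25, adjusted p = 0.0729, edgeR's quasi-likelihood test with Benjamini-Hochberg adjustment), at 0.90 within the deepest libraries and 0.93 within the others. It was called with DESeq2 (adjusted p = 0.0294), with limma-voom (0.0407), without the low-count filter (0.0430), with a term for the deepest libraries (0.00547) and without WT induced replicate 2 (0.0478). The remaining differences were 0.32 ± 0.25 for WT induction, 0.56 ± 0.24 between the induced lines (adjusted p = 0.203) and 0.03 ± 0.26 between the uninduced lines on the log2 scale, none of them called. In GENCODE 29, AHR shares 2373 of its 8081 exon bases with AC019117.2, which had no count in any library.

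ARNT, the partner that AHR needs to bind DNA, overlapped between groups in each of the 4 pairwise comparisons. Its range was 57.5 to 73.1 CPM in S222A induced, 50.4 to 69.9 in S222A uninduced, 41.5 to 66.4 in WT induced and 47.0 to 72.2 CPM in WT uninduced libraries. The S222A induction difference was 0.06 ± 0.21 on the log2 scale (adjusted p = 0.927), and its sign turned when 1 S222A library was left out (range -0.05 to 0.18). ARNT was highest in the deepest library in 4 of 4 groups, and the part of depth in its values was not tested.

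Among the target genes, TIPARP was the gene with a called change: it rose on S222A induction and was higher in S222A induced than in WT induced cells. It stood at 103, 108 and 73.8 CPM in S222A induced, against 32.2, 42.3 and 27.4 CPM in S222A uninduced libraries. The WT induced libraries held 35.4, 33.6 and 45.5 CPM, against 50.5, 37.1 and 47.4 CPM in WT uninduced libraries. Every S222A induced library exceeded all 9 others, and the other 3 groups overlapped. The means were 94.8 ± 18.3 CPM in S222A induced, 33.9 ± 7.60 in S222A uninduced, 38.2 ± 6.43 in WT induced and 45.0 ± 7.01 CPM in WT uninduced cells (SD, n = 3 each).

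TIPARP rose 2.75-fold on S222A induction (95% interval 1.98 to 3.80, log2 1.46 ± 0.22, adjusted p = 0.00251, edgeR's quasi-likelihood test), at 1.19 within the deepest libraries and 1.62 within the others. With each library left out in turn the adjusted p ran between 0.00236 and 0.0200. In S222A induced cells it was 2.45-fold higher than in WT induced cells (log2 1.29 ± 0.22, adjusted p = 0.00444, edgeR), and between 0.00411 and 0.0274 with each library left out. It was not called on WT induction (log2 -0.21 ± 0.22, adjusted p = 1.00) or between the uninduced lines (log2 -0.38 ± 0.22, adjusted p = 0.783). The S222A induction effect exceeded the WT one by 1.67 ± 0.31 on the log2 scale, with an adjusted p of 0.0869 that missed the threshold of 0.05 (unadjusted p = 0.000114, edgeR's quasi-likelihood test). That difference was called with DESeq2 (0.00148), without the low-count filter (0.00165), with a term for the deepest libraries (0.000531) and without the deepest libraries (0.0347).

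CYP1B1, the cytochrome P450 enzyme of this set, was like IL4I1 highest in S222A induced and next highest in S222A uninduced libraries. All 12 libraries were well above the floor, and unlike for IL4I1 the WT groups did not overlap. The S222A induced libraries held 139, 166 and 160 CPM, and the S222A uninduced libraries 54.5, 61.6 and 63.5 CPM. The WT induced libraries held 30.0, 31.4 and 33.9 CPM, and the WT uninduced libraries 28.8, 19.7 and 22.5 CPM. The 4 groups did not overlap with each other. In falling order they were S222A induced, S222A uninduced, WT induced and WT uninduced, and the closest neighbours were the WT groups. The level was 2.61-fold higher on S222A induction (log2 1.38 ± 0.16), 4.88-fold higher in S222A induced than in WT induced cells (log2 2.29 ± 0.17) and 2.55-fold higher in S222A uninduced than in WT uninduced cells (log2 1.35 ± 0.17, SE), all as descriptions. Within the 8 other libraries these log2 values were 1.27, 2.20 and 1.28, and within the deepest each was larger.

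On WT induction CYP1B1 was 1.36-fold higher (log2 0.44 ± 0.18, 95% interval 0.06 to 0.83) with no overlap between groups, but it was not called (unadjusted p = 0.0259, adjusted p = 1.00, edgeR's quasi-likelihood test). The S222A induction effect exceeded the WT one by 0.94 ± 0.24 on the log2 scale (SE). In GENCODE 29, CYP1B1 on chromosome 2 shares 678 of its 6014 exon bases (11.3%) with the antisense gene CYP1B1-AS1, which had 45 counts over the 12 libraries.

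AHRR, the repressor, showed smaller differences than TIPARP and CYP1B1, and none was called. It stood at 89.7, 83.4 and 83.0 CPM in S222A induced, 55.3, 66.1 and 46.0 CPM in S222A uninduced, 54.8, 56.1 and 71.6 CPM in WT induced and 60.6, 44.8 and 60.1 CPM in WT uninduced libraries. The S222A induced libraries lay above all others, and the other 3 groups overlapped. The S222A induction difference was 1.51-fold (log2 0.60 ± 0.18, adjusted p = 0.0833) and the difference between the induced lines 0.48 ± 0.18 on the log2 scale (adjusted p = 0.144, edgeR). With a term for the deepest libraries both were called (adjusted p = 0.00826 and 0.0210). On WT induction (0.16 ± 0.18) and between the uninduced lines (0.04 ± 0.19) the log2 differences lay within 1 SE of 0.

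NQO1, the quinone reductase, was not called in any comparison. It ranged over 24.1 to 30.1 CPM in S222A induced, 22.1 to 33.9 in S222A uninduced, 20.8 to 22.4 in WT induced and 16.7 to 23.4 CPM in WT uninduced libraries. The log2 difference was -0.05 ± 0.21 on S222A induction (adjusted p = 0.939), where the groups overlapped and the sign turned with single libraries left out. Between the induced lines it was 0.31 ± 0.21 (adjusted p = 0.441, edgeR) with every S222A induced library above every WT induced library.

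Counted together over the 5 tested genes, S222A induction gave 1 called gene, TIPARP, higher, where 4.45% of the 11474 genes tested were called in either direction and 2.8% higher. In 3 of the 5 (AHR, AHRR and TIPARP) every S222A induced library lay above every S222A uninduced library, which held for 14.4% of all genes tested. The median log2 difference of the 5 was 0.60, against 0.01 over all genes. Between the induced lines 1 of 5 was called, again TIPARP, where 6.34% of all genes were called, and 4 of 5 were higher without overlap, where 15.2% of all genes were. The median of the 5 there was 0.48 on the log2 scale, against 0.00 over all genes.

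Before induction 0 of the 5 tested genes were called between the lines and 0 of 5 were free of overlap. Of all genes 0.392% were called and 12.3% did not overlap, so 0 of 5 is not particular to these genes. On WT induction 0 of the 6 genes other than IL4I1 were called, where 0.00872% of genes were, and CYP1B1 alone of the 6 did not overlap, where 5.79% of genes did not. IL4I1 is left out of that count for its low WT counts. The difference of the induction effects gave 0 of 5 called, where 0.0784% of genes were, with a median of 0.44 on the log2 scale. At an unadjusted p under 0.05 the genes numbered 858 of 11474 between the uninduced lines, 195 on WT induction and 766 for the difference, and DESeq2 called 0 members between the uninduced lines, 0 on WT induction and 1, TIPARP, for the difference. The S222A induction and the induced-line comparison share the S222A induced libraries, so their values are given side by side and not as separate evidence.

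**Figure D3:**
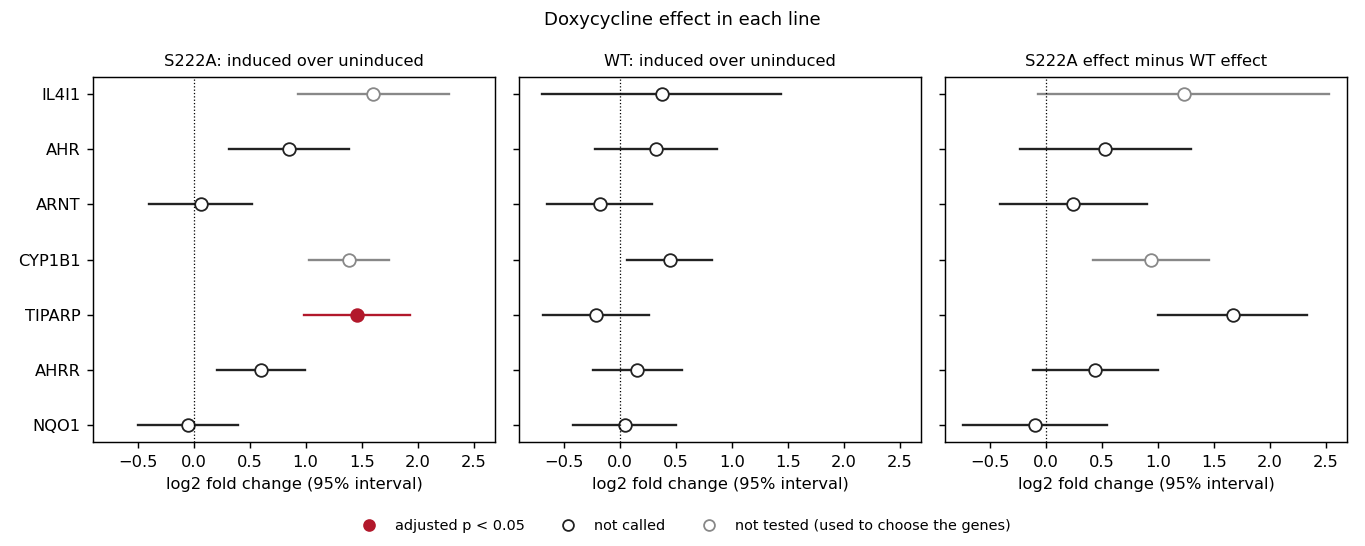
Log2 fold changes (95% interval) of the 7 genes on S222A induction, on WT induction and for the difference of these effects, with called genes in red, genes not called open in black and IL4I1 and CYP1B1 in grey where they were used to choose the genes. TIPARP stands at 1.46 on S222A induction and -0.21 on WT induction. The intervals of ARNT and NQO1 include 0 in each panel, with ARNT at 0.06, -0.18 and 0.24.

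**Figure D4:**
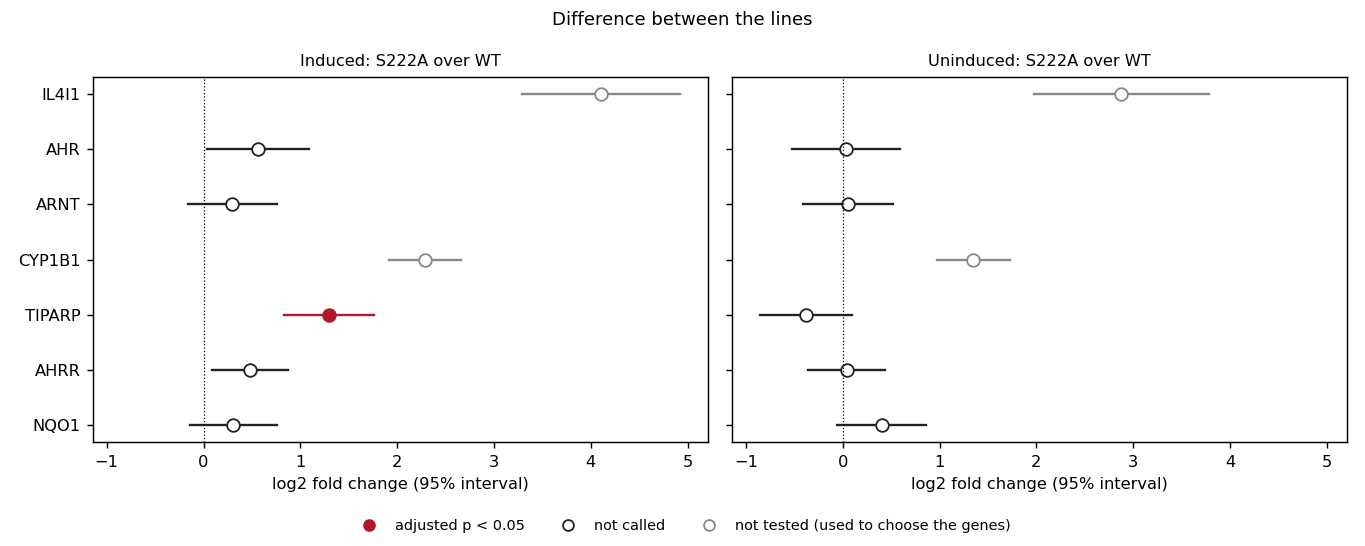
Log2 fold changes (95% interval) of the 7 genes between S222A and WT cells after and before induction, coloured in the same way. IL4I1 and CYP1B1 are above 0 in each panel, while TIPARP is at 1.29 after induction and at -0.38 before it.

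Pairs of genes differed in how closely they tracked across libraries. Over the 12 libraries, which share groups and depth, Pearson's r of log2 CPM was 0.96 for IL4I1 with CYP1B1, 0.90 for TIPARP with AHRR, 0.81 for AHR with AHRR and 0.80 for AHR with TIPARP, as descriptions. NQO1 had r between 0.08 and 0.11 with AHR, AHRR and TIPARP, 0.28 with ARNT, 0.63 with IL4I1 and 0.59 with CYP1B1. IL4I1 and CYP1B1 were chosen for higher levels in S222A cells, so their r and their higher level before induction may follow from that choice. AHR, AHRR and TIPARP stood apart in S222A induced libraries and overlapped between the uninduced lines. No contrast between the chosen and the other genes is drawn.

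**Figure D5:**
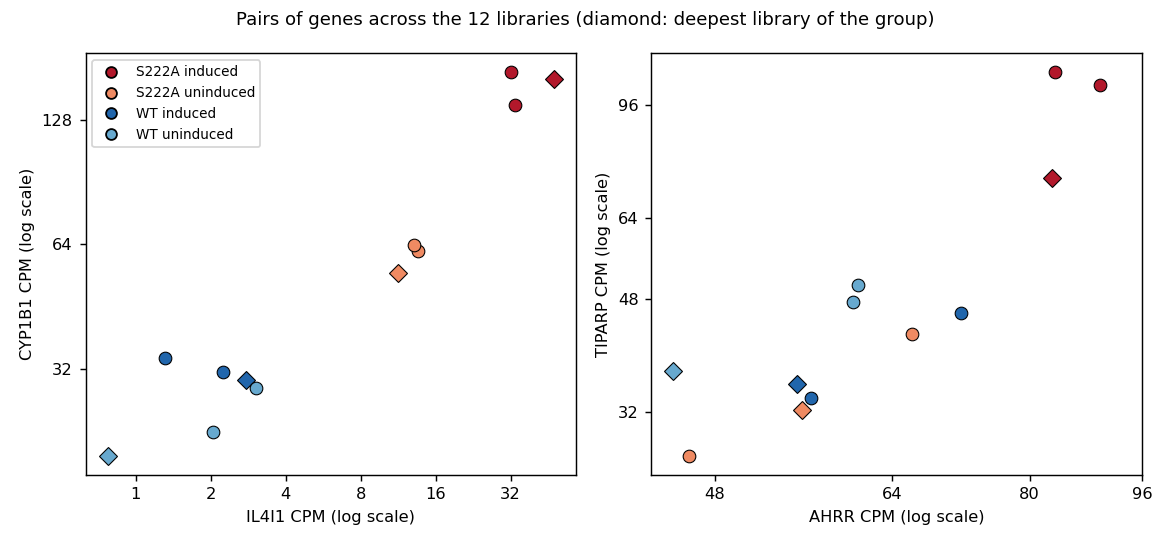
Pairs of genes plotted by library on log CPM axes, coloured by group, with diamonds for the deepest library of each group. IL4I1 and CYP1B1, both chosen for higher levels in S222A cells, are highest in S222A induced and next in S222A uninduced libraries (r = 0.96 over 12 libraries). For AHRR and TIPARP only the S222A induced libraries stand apart.

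The genes with a pattern nearest to IL4I1, of 11365 compared by Pearson's r over the 12 libraries, were CD82 (0.98), CYP1B1 (0.96), CYBB (0.95), SLC7A11 (0.95) and TIMP1 (0.95). CD82 is a membrane tetraspanin, CYBB the catalytic subunit of the phagocyte NADPH oxidase, SLC7A11 the cystine importer and TIMP1 an inhibitor of metalloproteases. CD82 ranged over 112 to 122 CPM in S222A induced, 44.4 to 49.3 in S222A uninduced, 13.5 to 15.3 in WT induced and 9.46 to 11.1 CPM in WT uninduced libraries. Nearest to CYP1B1 were CD82 (0.98), the membrane metalloprotease MMP14 (0.98), the NF-kB feedback gene TNFAIP3 (0.97), RNF24 (0.97) and BIRC3 (0.97), an inhibitor of apoptosis. These genes were ranked by likeness to genes chosen for being high in S222A cells, and their values are descriptions.

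Most classical AHR targets outside the 7 were near the limit of detection. CYP1A1, the P450 gene most often read as a sign of AHR activity, had 1 count over all 12 libraries, CYP1A2 had 3, and UGT1A1 and UGT1A6 had none. Of 12 further targets 4 could be tested, and none was called in any of the 5 comparisons (median log2 difference 0.21 on S222A induction and 0.47 between the induced lines). SLC7A5, the importer of large neutral amino acids that include tryptophan, ranged over 161 to 224 CPM in S222A induced and 285 to 394 CPM in S222A uninduced libraries, with no overlap. Its log2 difference was -0.82 ± 0.27 (adjusted p = 0.110, edgeR), and NFE2L2, which encodes NRF2, had 0.44 ± 0.25 (adjusted p = 0.367, edgeR). EREG, picked out after its values were seen, ranged over 33.32 to 38.8 CPM in S222A induced and 16.4 to 33.27 CPM in S222A uninduced libraries. It was thus higher without overlap (log2 0.33 ± 0.25), where 14.4% of all genes were. Between the induced lines EREG (log2 0.71 ± 0.26) and NFE2L2 (0.52 ± 0.25) were higher and SLC7A5 (-0.72 ± 0.27) lower, each without overlap.

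The receptor's chaperone complex and cofactors gave 0 calls among 9 tested genes in each comparison (median 0.07 on S222A induction). The HSP90 genes were lower without overlap on S222A induction but not called: HSP90AB1 at -0.56 ± 0.16 (adjusted p = 0.0734) and HSP90AA1 at -0.53 ± 0.17 (adjusted p = 0.0924, edgeR) on the log2 scale. Other genes of this list, picked out after their values were seen, were higher there without overlap and not called. They were CUL4B at 0.60 ± 0.18, SRC at 0.77 ± 0.31, NCOA1 at 0.72 ± 0.31 and NCOA2 at 0.64 ± 0.21. Of all genes 14.4% were higher without overlap, and the share lower without overlap is not given here. Of 13 bHLH-PAS relatives, 3 were tested and 0 called in any comparison, with HIF1A at 0.11 ± 0.34 (adjusted p = 0.915) and CLOCK at 0.35 ± 0.23 (adjusted p = 0.458, edgeR) on S222A induction. ARNT2, the other AHR partner of the family, had no count in any library.

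The other enzyme routes from tryptophan to AHR ligands gave no call. Of the enzymes that open the kynurenine route, IDO1 had no count, IDO2 had 1 and TDO2 had 2 over the 12 libraries. Of 16 genes of these routes 9 were tested and 0 called in any comparison, where 4.45% of all genes were called on S222A induction. KMO, among the 9, did not overlap between the S222A groups and is given under the other observations. Kynureninase, KYNU, had a log2 difference of 0.56 ± 0.36 (adjusted p = 0.455) and the aminotransferase GOT2 one of -0.50 ± 0.17 (adjusted p = 0.119, edgeR) on S222A induction. Of 5 aromatic amino acid transporters 4 were tested and 0 called, with a median of -0.44 on S222A induction against 0.01 over all genes; SLC36A4 was at -0.62 ± 0.27 (adjusted p = 0.234, edgeR).

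Among 13 genes of the NRF2 pathway 10 were tested, and none was called on induction in either line (median 0.12 on S222A induction). SLC7A11, already named for its likeness to IL4I1, was higher in S222A than in WT cells after induction (log2 2.19 ± 0.21, SE) and before it (log2 1.75 ± 0.21), given as a description for that reason. PRDX1, a peroxiredoxin, and TXNRD1, a thioredoxin reductase, had log2 differences of 0.36 ± 0.24 and -0.22 ± 0.20 on S222A induction. Haem oxygenase HMOX1, with 51 counts in all, was below the filter and was not tested. Its counts were 39 in S222A induced, 11 in S222A uninduced, 0 in WT induced and 1 in WT uninduced libraries. Of 7 regulators of IL4I1 all were tested and 0 called on induction (median 0.21), with NFKB1 at 0.21 ± 0.21. Among them IL13RA1, a receptor chain for IL-13 that was picked out after its values were seen, was higher in S222A induced than in WT induced cells (log2 0.88 ± 0.20, adjusted p = 0.0220, edgeR), a call lost in 6 of 20 alternatives.

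Of 7 genes that neighbour or overlap these genes 6 were tested, and none was called on induction. PDCD6, whose exons share 244 bases with AHRR, had a log2 difference of -0.01 ± 0.17 on S222A induction (adjusted p = 0.986, edgeR), with a sign that turned under several settings. EXOC3, a gene near AHRR and also picked out after its values were seen, was higher in S222A induced than in WT induced cells (log2 0.74 ± 0.17, adjusted p = 0.0228, edgeR), a call lost in 4 of 20 alternatives.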

How the data were processed

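RNA sequencing of 12 libraries in 4 groups of 3 was analysed from 1 table of counts per gene symbol that the authors deposited, with no normalization. The submitters' processing notes name STAR 2.4, HTSeq 0.6.1, DESeq2 and the build hg19. The annotation release, counting rule and strandedness were not given in the sources used here. Per the labels' protocols, the library kit was TruSeq RNA. Columns were matched to samples by the descriptions in the labels, and the S222A columns are named for MEF2C without the mutation.

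Genes were kept by edgeR's filterByExpr (minimum count 10), which left 11474 of 55765 genes with 99.47% of the counts. The model held a mean for each group over all 12 libraries, with TMM factors and 8 residual degrees of freedom. Robust quasi-likelihood F tests were run in edgeR 4.0.16 (R 4.3.3). Calls are genes with a Benjamini-Hochberg adjusted p under 0.05, with the adjustment over the 11474. A standard error (SE) is the size of the log2 fold change over the root of its F value. Totals of 875710 to 13134791 counts set the precision, and the biological coefficient of variation was 24.8%.

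There were 5 comparisons: both inductions, the lines after and before induction, and the difference of the inductions. The 7 genes, the 8 lists of related genes and the alternatives were chosen with earlier results of these data known. Named beside the 7 are list members called in either induction or in their difference, else the 2 with the highest level in each list, the 5 genes most like IL4I1 and like CYP1B1 (mean of at least 1 log2 CPM), and MEF2C, except 1 list gene that is not reported here. Genes said to be picked out after their values were seen were named outside this rule. Log2 CPM for likeness had a prior count of 2. The scripts were tested on simulated data. Exon overlaps come from GENCODE 29 (GRCh38), and no coordinates were converted between builds. Alternatives were DESeq2 1.42.0, limma-voom 3.58.1, RLE and upper quartile factors, no filter, a replicate block, a term for or omission of the deepest libraries, and each library left out.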

Additional observations from a re-analysis of the deposited data

How the results depend on the processing

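Under 20 alternatives the tested values of the 7 genes gave 540 values, of which 510 kept direction and side of the threshold, 11 gained a call, 19 turned sign and 0 lost a call. Of 160 untested values of IL4I1 and CYP1B1, 154 stayed within 1 SD of the replicates and 6, all of IL4I1, moved further. S222A induction called 1 of the 5 tested genes. It called 2 with DESeq2, 2 with limma-voom and 2 with no filter (AHR and TIPARP), 3 with a term for the deepest libraries (AHRR also), and 1 to 2 with each library left out. The induced-line comparison called 1, and 2 with that term. The difference of inductions called 0, and 1 (TIPARP) with DESeq2, with no filter, with that term and without the deepest libraries. WT induction and the uninduced lines called 0 in all 20. The causes were not tested.

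The sign turned for the log2 differences that follow. On S222A induction, with each library left out, ARNT ran from -0.049 to 0.18, NQO1 from -0.23 to 0.059 (limma-voom 0.027), HIF1A from -0.11 to 0.33 and PDCD6 from -0.10 to 0.13 (upper quartile 0.012, no filter 0.019, without the deepest 0.021). On WT induction IL4I1 ran from -0.19 to 0.81 (without the deepest -0.70), NQO1 from -0.10 to 0.14 and MEF2C from -0.0092 to 0.17. Between the uninduced lines AHR ran from -0.18 to 0.18, AHRR from -0.12 to 0.14 (without the deepest -0.061), ARNT from -0.12 to 0.21 and MEF2C from -0.17 to 0.0078. NQO1 ran from -0.27 to 0.062 for the difference, and NUP62 from -0.041 to 0.10 between the induced lines.

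Over all genes, S222A induction called 511 genes, against 811 with DESeq2, 2052 with the deepest-library term and 187 to 580 with each library left out. WT induction called 1, against 4 with DESeq2, 6 with the deepest-library term, 2 with no filter and 0 with limma-voom, upper quartile factors, without the deepest libraries and with each library left out. The induced lines gave 727, against 2480 with the deepest-library term and 249 to 891 with each library left out. The uninduced lines gave 45, against 83 with DESeq2, 91 with no filter, 218 with the deepest-library term and 17 to 48 with each library left out. The difference gave 9, against 36, 22, 147 and 0 to 4 under those settings.

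Over 18 same-numbered pairs the correlation of deviations ran from -0.53 to 0.64, 6 were over 0.1, and 0 of 12 libraries correlated best with its own number. The highest value was between WT induced replicate 1 and S222A uninduced replicate 1, both the deepest of their group. The deepest libraries do not carry the same number in every group, so this check cannot show or exclude pairing by number. With the replicate block the counts were 235 for S222A induction, 0 for WT induction, 350 for the induced lines, 22 for the uninduced lines and 0 for the difference, and TIPARP kept its calls (S222A induction adjusted p = 0.0119, induced lines 0.0205). Depth limits IL4I1 most, with 26 counts in the WT induced and 15 in the WT uninduced libraries.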

Other observations

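Depth moved with some of these genes. AHRR was lowest in the deepest library in 3 of 4 groups and so was CYP1B1, while ARNT was highest there in 4 of 4; the part of depth in these orders was not tested.

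KMO, the kynurenine monooxygenase, was picked out after its values were seen. It held 6.58, 3.79 and 5.26 CPM in S222A induced libraries (19, 17 and 66 counts), against 0.961, 0.410 and 3.29 CPM in S222A uninduced libraries (8, 1 and 3 counts). The groups did not overlap, and the log2 difference of 2.19 ± 0.61 (SE, n = 3 each) missed the threshold (adjusted p = 0.0606, edgeR's quasi-likelihood test).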
